A study of Macaca mulatta with 18 samples.

Results

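The 8 genes described here, GABRA2, GABRA3, GABRA4, GABRA5, GABRA6, GABRB1, GABRB2 and GABRD, encode alpha, beta and delta subunits of the GABA-A receptor. They were taken by gene symbol from the expression tables of 3 brain regions of the rhesus macaque (Macaca mulatta), and each of the 8 symbols matched 1 of 30245 genes listed for every region. Striatum (STR), cerebellum (CER) and prefrontal cortex (PFC) were dissected after death from 6 monkeys, for which the labels give no genetic change or treatment. The 3 Indian-origin monkeys were 7.5, 15 and 16 years of age and were born at the primate centre where all of them lived. The 3 Chinese-origin monkeys were 10.5, 11 and 11.5 years of age and came to that centre as young adults, so origin and early life cannot be told apart. All animals received the same stock diet with fruits and vegetables, and the study asked whether gene expression in the brain differed with origin.

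RNA-seq of 18 libraries, 1 for each monkey and region, gave the values. For every gene, the authors' tables hold 1 pooled value for each origin and region, in FPKM (reads scaled to transcript length and to library size). Every gene therefore has 6 pooled values, each standing for 3 monkeys. Values of single monkeys were not used here, so no level has an error, no difference was tested against the spread between animals, and the depth of each library was not used. The pools of a region come from different monkeys but shared 1 lane and 1 normalization, so they are not independent readings of a difference between regions. The regions were quantified and normalized separately, with the 6 libraries of each on a lane of their own, so region and lane cannot be told apart.

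The GABA-A receptor is a chloride channel that opens when it binds GABA, the main inhibitory transmitter of the brain. It is a ring of subunits, most often alpha and beta subunits with a gamma or a delta subunit. GABA binds between beta and alpha subunits, and benzodiazepines bind between certain alpha subunits and gamma. Receptors with gamma gather at synapses and carry brief inhibitory currents, whereas receptors with delta, and many with the GABRA5 product, lie outside synapses and carry a steady, tonic current. In rodents, the GABRA6 product is known as a subunit of cerebellar granule cells, where it pairs with delta.

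All members but GABRD lay in known subunit gene clusters, with positions given as the files list them on the mmul1 build. GABRA2 (ENSMMUG00000003614, chr5:41431677-41578130), GABRA4 (ENSMMUG00000009526, chr5:42136854-42205259) and GABRB1 (ENSMMUG00000021776, chr5:42244714-42651016) followed GABRG1 on chromosome 5. GABRB2 (ENSMMUG00000018044, chr6:157687340-157944584) and GABRA6 (ENSMMUG00000002832, chr6:158075902-158092308) were 131 kb apart on chromosome 6. GABRA5 (ENSMMUG00000023554) was listed at chr7:5459974-5861169. The same locus was listed for 1 other gene, so the span may reach beyond GABRA5 itself. GABRA3 (ENSMMUG00000001540, chrX:150255400-150538696) lay between GABRE and GABRQ. GABRD (ENSMMUG00000019086, chr1:5065406-5071284) had no other listed subunit gene beside it. The locus of GABRA3 also held 4 short RNA genes and that of GABRB1 held 1.

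The tissue labels were checked against marker genes. All 10 measured granule neuron markers and all 6 Purkinje cell markers were at least 2-fold higher in CER than in PFC and STR in both origins, and all 10 markers of striatal projection neurons were at least 2-fold higher in STR than in PFC. Of 12 markers of cortical excitatory neurons, 11 were at least 2-fold lower in STR than in PFC and 10 were at least 2-fold lower in CER. The exceptions in CER were NEUROD2 and NPTX1, which were at least 2-fold higher there than in PFC, and the exception in STR was NRGN.

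**Figure D1:**
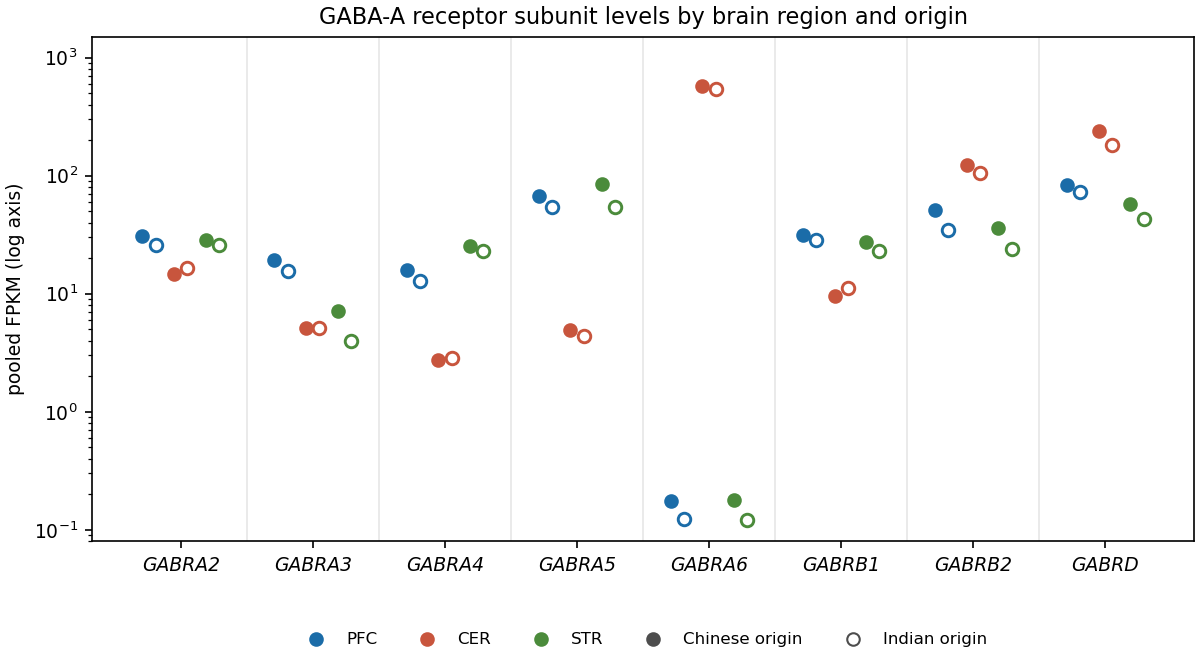
Pooled FPKM on a log axis of the 8 subunit genes in PFC, CER and STR, filled for Chinese-origin and open for Indian-origin monkeys, with 1 pooled value of 3 monkeys per point. GABRA6 spans from under 0.2 FPKM in PFC and STR to 572 in CER, whereas the pools of both origins lie close together for most genes.

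CER and PFC separated the subunits far more than origin did. The mean CER over PFC difference of the 8 members ran from a log2 ratio of -3.67 for GABRA5 to 11.13 for GABRA6, whereas no difference between origins was larger than 0.84 in size on the same scale. STR and PFC were closer, from -1.67 for GABRA3 to 0.75 for GABRA4 among the 7 members at or above 1 FPKM. In size, this STR over PFC ratio exceeded the origin ratio in STR for GABRA3, GABRA4 and GABRD. For GABRA2, GABRA5, GABRB1 and GABRB2 it was the smaller, with 0.17 against 0.66 for GABRA5. All ratios are of FPKM + 0.1, which understates differences of genes near 0. A gene was counted between regions where its ratio was at least 2-fold in the same direction in both origins. By that measure 3 members, GABRA6, GABRB2 and GABRD, were higher in CER than in PFC, where 12.9% of 18341 genes were, and 4 members, GABRA3, GABRA4, GABRA5 and GABRB1, were lower in CER, where 8.64% of genes were. In bulk tissue, fewer cells of a type and less RNA per cell cannot be told apart.

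GABRA6 was a cerebellar transcript. Its CER level was 572 FPKM in the Chinese-origin pool and 541 in the Indian-origin pool. In PFC it was 0.174 and 0.124, and in STR 0.179 and 0.121. At these low levels the authors' software listed the gene as too sparse to test in PFC and STR, so the size of the difference depends on the constant added to FPKM. With 0.1 added, Chinese-origin monkeys had a CER over PFC log2 ratio of 11.03 and Indian-origin monkeys of 11.24, and with 1 added it was 8.93 and 8.91. Its mean ratio ranked 8 of 18341 genes for CER over PFC and 10 of 18502 for CER over STR. Granule neuron markers had a like direction: CBLN1, a secreted synapse organizer, had 646 and 517 FPKM in CER against 6.19 and 6.04 in PFC.

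GABRD, whose delta subunit takes the place of gamma in tonic receptors, was present in every region and highest in CER. Its FPKM was 237 and 182 in CER, 83.2 and 72.9 in PFC and 58.0 and 42.8 in STR, naming the Chinese-origin pool first here and below. CER was 2.84-fold and 2.497-fold above PFC, and 4.07-fold and 4.25-fold above STR. The pools of the 3 regions did not overlap.

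GABRB2 encodes the beta subunit of many of the brain's synaptic receptors. Its FPKM was 123 and 105 in CER, 51.5 and 34.6 in PFC and 35.7 and 23.7 in STR, so that CER was 2.38-fold and 3.04-fold above PFC. The pools of PFC and STR overlapped. The authors' software marked the calculation for GABRB2 as failed in every region, a mark shared by 6.996% of the genes for PFC, 9.28% for CER and 8.19% for STR, and what this does to its FPKM was not tested.

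GABRA5 went the other way, with the lowest CER level relative to the other regions of any member. This alpha subunit of tonic receptors had 66.7 and 54.5 FPKM in PFC, 85.1 and 53.9 in STR and 4.92 and 4.35 in CER. CER was 13.3-fold and 12.3-fold below PFC, and 17.0-fold and 12.1-fold below STR.

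GABRA4, a partner of delta in the forebrain, was the 1 member with its highest level in STR in both origins and no overlap with PFC. It had 25.1 and 22.8 FPKM in STR, 15.9 and 12.7 in PFC and 2.75 and 2.87 in CER. CER was 5.60-fold and 4.31-fold below PFC. STR was 1.58-fold and 1.79-fold above PFC, short of the 2-fold measure.

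GABRA3, a benzodiazepine-sensitive alpha subunit, was chiefly a PFC transcript. Its FPKM was 19.2 and 15.5 in PFC, 7.20 and 3.98 in STR and 5.17 and 5.13 in CER. It was the 1 member of 7 with sufficient levels that was at least 2-fold lower in STR than in PFC, by 2.64-fold and 3.82-fold, where 4.69% of 18117 genes were. None of the 7 was at least 2-fold higher in STR, where 3.64% of genes were.

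GABRB1 and GABRA2, both in the chromosome 5 cluster but with GABRA4 between them, had similar profiles. GABRB1, a beta subunit, had 31.3 and 28.3 FPKM in PFC, 27.5 and 23.1 in STR and 9.59 and 11.1 in CER, which was 3.24-fold and 2.53-fold below PFC. GABRA2, an alpha subunit found at synapses and on the axon initial segment of cortical neurons, had 30.6 and 25.7 FPKM in PFC, 28.7 and 25.7 in STR and 14.6 and 16.5 in CER. Its CER level was 2.09-fold below PFC in Chinese-origin but 1.55-fold below in Indian-origin monkeys, so it was not counted. For GABRA2, PFC and STR pools overlapped.

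The same pattern held between CER and STR. GABRA6, GABRB2 and GABRD were at least 2-fold higher in CER, where 13.1% of 18502 genes were, and GABRA4, GABRA5 and GABRB1 were at least 2-fold lower, where 9.89% were. GABRA3 gave opposite signs, with a log2 ratio of -0.47 in the pool of Chinese-origin monkeys and 0.36 in the other pool. The PFC and CER pools overlapped for none of the 8 members, and 73.4% of genes had no overlap. CER and STR overlapped for 1 member, where 71.9% of genes had no overlap, and of the 7 members at or above 1 FPKM, STR and PFC overlapped for 3, where 51.4% of genes had no overlap. The order of the 3 regions was the same in both origins for 5 of 8 members. When every column was scaled to the same total FPKM, GABRA3 and GABRB1 were no longer counted between CER and PFC, nor GABRB1 between CER and STR. With 1 added in place of 0.1, the CER over STR count went from 6 to 5.

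**Figure D2:**
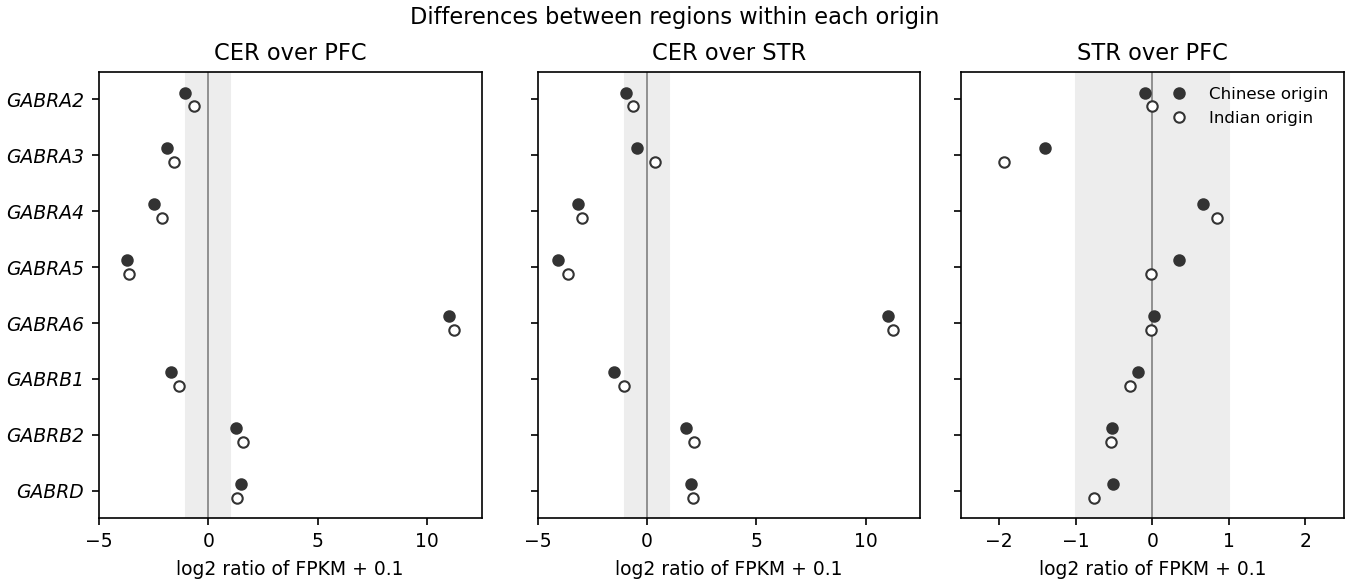
Log2 ratios of FPKM + 0.1 between regions for the 8 subunit genes, filled for Chinese-origin and open for Indian-origin pools, with the span under 2-fold shaded. GABRA6, GABRB2 and GABRD lie right of the shading in both comparisons with CER, GABRA4, GABRA5 and GABRB1 lie left of it, and only GABRA3 leaves it in STR over PFC.

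Because FPKM is per length, levels can be set side by side as shares of the summed FPKM of the 8 members. Such shares depend on the gene models of the annotation. The sums of all members and of the beta members include GABRB2, whose calculation was marked as failed. GABRA6 made up 59.1% and 62.3% of that sum in CER and 0.0584% and 0.0507% in PFC. GABRA5 made up 22.3% and 22.3% in PFC, 31.8% and 27.5% in STR and 0.508% and 0.501% in CER. GABRA4 made up 5.32% and 5.20% in PFC, 9.39% and 11.6% in STR and 0.284% and 0.330% in CER. Within the 5 alpha members, GABRA5 was the largest in PFC, with 50.3% and 50.2%, and in STR, with 58.2% and 50.6%, whereas GABRA6 held 95.4% and 94.9% in CER.

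Of the summed FPKM of the 2 beta members, GABRB2 made up 92.7% and 90.5% in CER, 62.2% and 55.0% in PFC and 56.5% and 50.7% in STR, and GABRB1 made up the rest. GABRD differed less by region as a share than as a level. It was 27.9% and 29.8% of the 8 members in PFC, 24.4% and 21.0% in CER and 21.7% and 21.8% in STR. The 8 members summed to 299 and 244 FPKM for PFC, 969 and 869 for CER and 268 and 196 for STR.

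**Figure D3:**
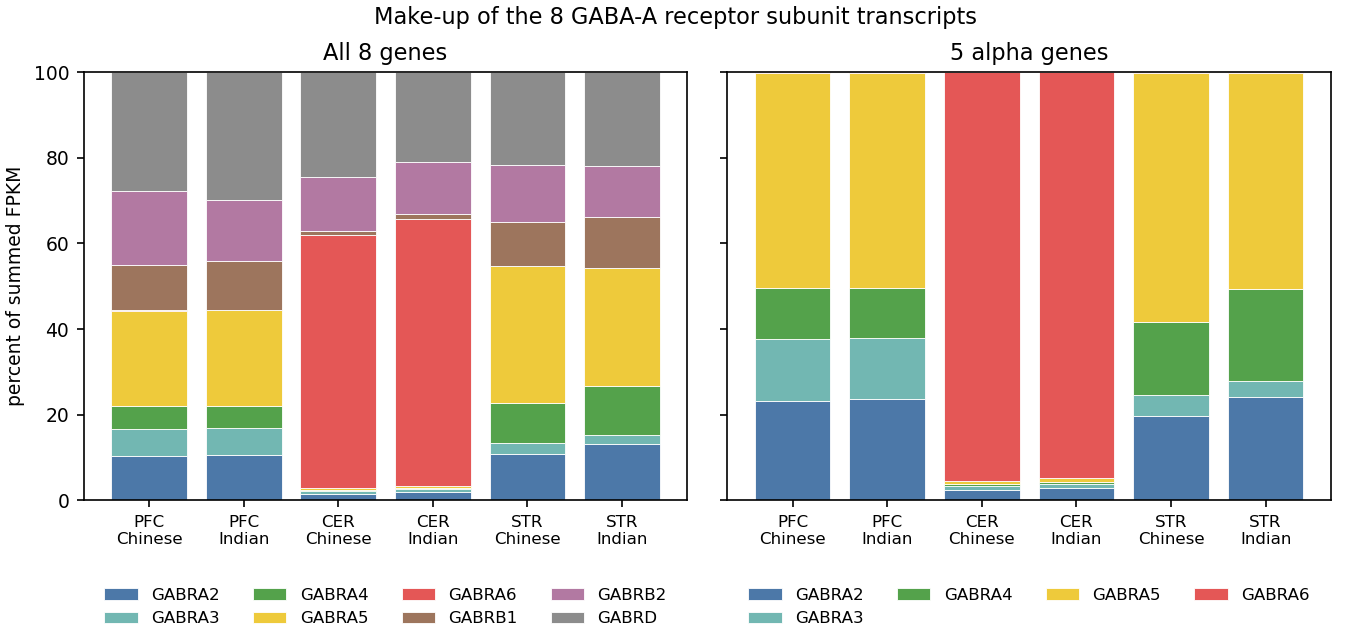
Stacked shares, in percent of summed FPKM, of the 8 subunit genes and of the 5 alpha genes among them in each region and origin, with 1 bar for each pool of 3 monkeys. GABRA6 fills 95.4% and 94.9% of the alpha bars in CER and is too thin to see in PFC and STR, where GABRA5 is the largest alpha segment.

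Another 8 subunit genes give the context, and 3 of them, GABRP, GABRR1 and GABRR3, stayed under 0.2 FPKM in all 6 pools. In the chromosome 5 cluster, GABRA2, GABRA4 and GABRB1 had their lowest levels in CER. GABRG1, a gamma subunit gene of the same cluster, had its highest there, 24.7 and 30.3 FPKM against 15.0 and 14.6 in PFC. GABRB2 and GABRA6, on chromosome 6, both had their highest levels in CER. Of the 5 other subunits with sufficient levels, 1 (GABRR2) was at least 2-fold higher in CER than in PFC and 2 (GABRG3 and GABRQ) were at least 2-fold lower. Against STR, GABRR2 was at least 2-fold higher in CER, and GABRE and GABRQ were at least 2-fold lower. None of 4 was at least 2-fold different between STR and PFC in either direction.

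Between origins, most member values as the authors scaled them were slightly higher in the Chinese-origin pools, and so were most genes. As deposited, the Chinese-origin pool was the higher for 7 of 7 members at or above 1 FPKM in PFC, for 7 of 7 in STR and for 5 of 8 in CER. Over all genes with at least 1 FPKM in either origin, the share that was higher was 83.7% for PFC, 71.1% for CER and 87.0% for STR. The median gene had a Chinese over Indian log2 ratio of 0.19 for PFC, 0.10 for CER and 0.31 for STR, and of the members at or above 1 FPKM, 5 of 7, 3 of 8 and 4 of 7 were above that median. A change of scaling moves all genes of a region nearly alike, and moved these medians by up to 1.14 on the log2 scale, so differences are also given relative to the median gene of the region.

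A gene was counted between origins where its ratio was at least 1.5-fold. No member passed in PFC (0 of 7), where 8.14% of 17068 genes were higher and 4.86% lower in Chinese-origin monkeys. No member passed in CER (0 of 8), where 7.81% of 17097 genes were higher and 5.57% lower. In STR, 3 of 7 members were counted as higher, where 19.1% of 17224 genes were, and 0 as lower, where 4.01% were. These counts depended on scaling. With the STR median set to 0, or with columns scaled over loci of at least 300 bases, the STR count was 0, and with columns scaled to a common total over all genes 7 members passed for PFC, 8 for CER and 7 for STR.

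The 3 members counted in STR were GABRA3, GABRA5 and GABRB2. GABRA3 had 7.20 FPKM in Chinese-origin and 3.98 in Indian-origin monkeys, a 1.79-fold difference, against 1.24-fold for the median gene. It was 1.24-fold apart in PFC and 1.01-fold in CER. GABRA5 had 85.1 and 53.9 FPKM in STR, a 1.58-fold difference, and differed by 1.22-fold in PFC and 1.13-fold in CER. GABRB2 had 35.7 and 23.7 FPKM in STR, a 1.503-fold difference. Relative to the median gene of STR, GABRA3 was higher by a log2 ratio of 0.53, GABRA5 by 0.35 and GABRB2 by 0.28, and 90.6%, 85.01% and 81.0% of genes lay below them.

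Across regions, GABRB2 differed by 1.49-fold in PFC, 1.16-fold in CER and 1.503-fold in STR, with the Chinese-origin pool the higher, and this is the gene whose calculation was marked as failed. Its log2 ratio was 0.38, 0.12 and 0.28 above the median gene of those regions. GABRD was 1.14-fold, 1.30-fold and 1.35-fold higher as deposited, which relative to the median gene was a log2 ratio of 0.28 in CER and 0.13 in STR and level with it in PFC. GABRA6 in CER differed by 1.06-fold, with 45.8% of genes below it. GABRA2 and GABRB1 in CER were at 0.883-fold and 0.864-fold of the Indian-origin level as deposited, with 12.6% and 11.5% of genes below them, but above that level when columns were scaled to a common total over all genes.

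**Figure D4:**
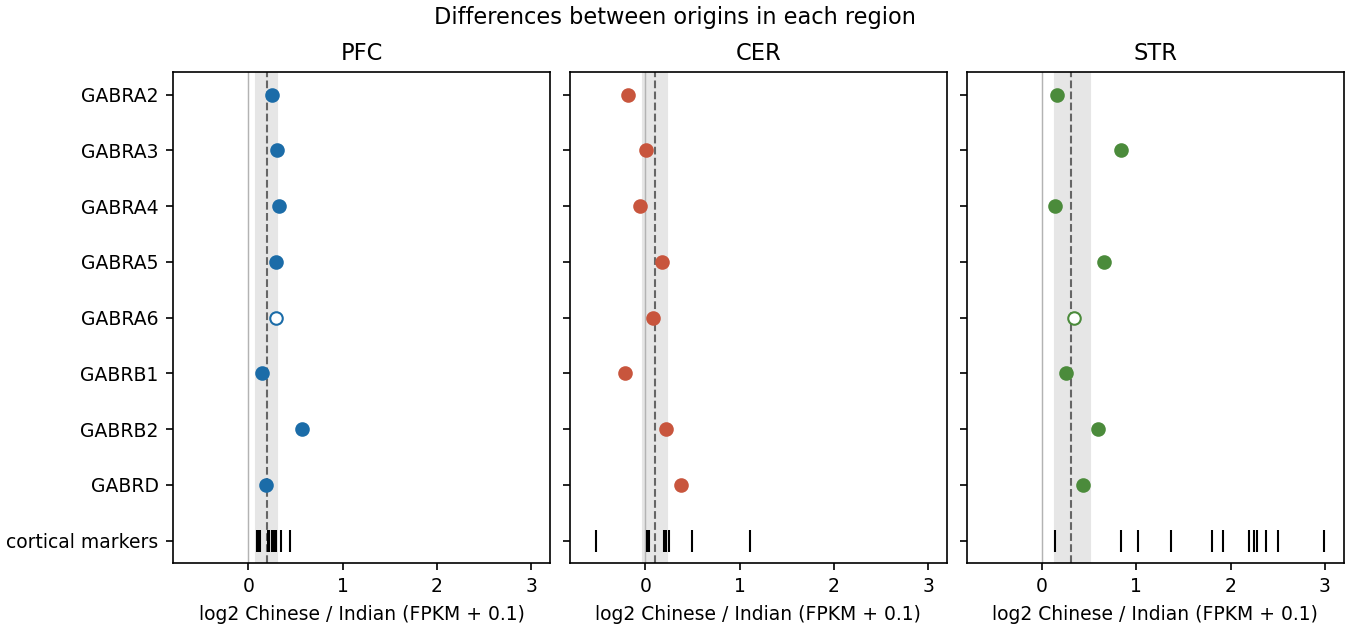
Chinese over Indian log2 ratios of FPKM + 0.1 for the 8 subunit genes, with the median gene as a dashed line, the middle 50% of genes shaded, open points for genes under 1 FPKM and ticks for cortical excitatory neuron markers. In STR, GABRA3, GABRA5 and GABRB2 lie right of the shaded span, and so do 11 of 12 cortical markers.

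Markers of other cell types also differed between the origins in STR. Of 12 cortical excitatory neuron markers, all with at least 1 FPKM and none at 0, 11 were at least 1.5-fold higher in Chinese-origin STR, with a median log2 ratio of 2.06. SLC17A7, which loads glutamate into synaptic vesicles, had 59.6 FPKM in STR of Chinese-origin monkeys and 12.2 in that of Indian-origin monkeys, against 406 and 351 in PFC. The list summed to 2024 and 1721 FPKM in STR, of which NRGN, present in both tissues, gave 1776 and 1621. The part of these markers in the STR differences of GABRA3, GABRA5 and GABRB2 was not tested. In PFC 0 and in CER 1 of the cortical markers passed 1.5-fold upwards.

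Markers of the tissues' own neurons were closer between origins. None of 10 striatal projection neuron markers passed 1.5-fold in STR, and none of 10 granule neuron and none of 6 Purkinje cell markers did in CER. No astrocyte, oligodendrocyte or endothelial marker passed in any region, and 2 of 4 measured microglial markers were higher in Chinese-origin PFC and 2 of 4 in STR. Of 9 interneuron markers, 2 were higher in Chinese-origin STR, none passed in PFC, and 1 of the 4 with sufficient levels was lower in CER. All 5 choroid plexus markers were at least 1.5-fold lower in Chinese-origin CER, summing to 657 against 2096 FPKM. TTR, the most abundant of the 5, was also lower in Chinese-origin PFC, with 7.35 against 26.3 FPKM, and STR, with 25.8 against 40.1. The part of microglial, interneuron and choroid plexus markers in the member values was not tested.

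Among these other subunits, the largest difference between origins in PFC was that of GABRE, the epsilon subunit, which neighbours GABRA3 on the X chromosome. It was at least 1.5-fold lower in Chinese-origin monkeys in all 3 regions, with 2.80 against 8.02 FPKM in PFC, 2.52 against 4.44 in CER and 6.10 against 11.9 in STR. GABRG3, a gamma subunit, was at least 1.5-fold higher in all 3, with 3.18 against 1.87 FPKM in PFC, 1.44 against 0.838 in CER and 2.87 against 1.39 in STR. GABRQ, the theta subunit on the other side of GABRA3, was higher in Chinese-origin STR, with 4.06 against 1.48 FPKM, and GABRR2, a rho subunit, in CER, with 1.19 against 0.382. GABRG1 stayed under 1.5-fold in every region.

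Profiles across the 6 pools were compared by the root mean square difference of log2(FPKM + 0.1), each gene centred on its own mean, among 13495 named genes reaching at least 5 FPKM. The 6 pools come from 3 lanes and the same 6 monkeys, so likeness is a description. Among the subunits with a profile compared, GABRB2 and GABRD were nearest to each other (0.14). GABRA2 and GABRB1 were nearest to each other (0.28), as were GABRA4 and GABRA5 (0.59). The nearest of all genes were OSCP1 for GABRA2 (0.044), ETS2, a transcription factor, for GABRA3 (0.040), and ALCAM, a cell adhesion molecule, for GABRA4 (0.11). For GABRA5 the nearest was ANKRD33B (0.057), for GABRB1 the RNA-binding protein gene CELF5 (0.075), for GABRB2 ZBTB8A (0.069) and for GABRD the transcription factor gene FOXO3 (0.063).

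Next after these were SOCS2 and TMEM121 for GABRA2, PIK3CD and NLK for GABRA3, ABRACL and PRR7 for GABRA4, and DLGAP2 and MAST3 for GABRA5. They were HMGB3 and HSPBP1 for GABRB1, AHR and VWA7 for GABRB2, and ARHGAP6 and TMEM63C for GABRD. For GABRA6, the 3 nearest entries were the short RNA genes mml-mir-1234, MIR1204 and U7, each listed at 0 in PFC and STR. Among genes at loci of at least 300 bases, a search added after those names were seen, EN2, the engrailed homeobox gene of the midbrain and hindbrain, came after mml-mir-1234 as the next nearest to GABRA6 (1.14). EN2 had 55.7 and 58.5 FPKM in CER and at most 0.0613 in PFC and STR.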

How the data were processed

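The authors made 18 RNA-seq libraries, 1 per region of each monkey, and read 50 bases from 1 end. FastQC, TopHat against mmul1 and Cuffdiff (version 0.0.5 per the labels) produced 1 table per region. Deposited FPKM values are the authors' pooled estimates for each origin, normalized within a region. The authors' own fold changes, test statistics, p-values, q-values and significance marks are also in these tables and were not used. Of 30246 lines per region, 1 repeated line in STR was left out, and the 30245 genes listed in all regions were kept.

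Ratios were computed with Python 3.11.15, numpy 2.4.6 and pandas 2.3.3 as log2 of FPKM + 0.1. A gene was included at an FPKM of at least 1 in any pool compared. Counts used 1.5-fold between origins and 2-fold, in both origins, between regions. The scripts were tested on simulated data. Members, gene lists and rules were chosen with earlier results of these data known: named genes were the 8 members and 8 other subunits, up to 4 of the highest-FPKM genes per other list, with further genes named after their values were seen, and the 3 nearest profiles per member. GABBR1, GAD1, ABAT, SHISA7, HAP1, ETV1, RELN, PPP1R17, SKOR2, C1QA and C1QB were not analysed here, and some items are not reported. No count test, interval or permutation was used, because 1 pooled value per origin leaves no replicates. Alternatives changed the added constant, minimum, fold and scaling.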

Additional observations from a re-analysis of the deposited data

How the results depend on the processing

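Each origin and region has 1 pooled value, so precision cannot be stated and no single monkey could be left out. No paired analysis was possible because the columns carry no replicate numbers. Loci under 300 bases held 59.0% and 84.8% of summed FPKM in PFC (Chinese, then Indian origin), 46.0% and 73.2% in CER and 64.5% and 86.3% in STR. Scaling each column to a common total moved the median origin ratio by 1.14, 0.97 and 1.01 on the log2 scale, and members past 1.5-fold became 7 in PFC, 8 in CER and 7 in STR. Scaling over loci of at least 300 bases, chosen after seeing the data, moved it by -0.29, -0.04 and -0.36, and the STR count became 0, as it did with the median gene set to 0. A lower threshold than 1.5-fold gave 1 member in PFC and 1 in CER, and a 2-fold threshold gave 0 in STR. Between regions, a 1.5-fold threshold gave 2 members for STR over PFC, and a 4-fold threshold gave 3 for CER over PFC and 0 for STR over PFC. All other counts stayed within 1.5 times the main count, and no counted ratio changed sign. Origin ratios under the threshold did change sign. As deposited, 8 of 8 members were higher in Chinese-origin PFC, 5 in CER and 8 in STR, with GABRA6 under 1 FPKM included. Scaled over loci of at least 300 bases, these became 4, 4 and 5. With columns scaled to a common total over all genes, they were 8 in each region.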

Other observations

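Of 19 measured anchoring and trafficking genes of the receptor at or above 1 FPKM, none was at least 2-fold different between CER and PFC or between STR and PFC, and 1 (PLCL1) was lower in CER than in STR. GPHN, the gephyrin scaffold, had 34.7 and 29.7 FPKM in PFC, 70.5 and 59.1 in CER and 42.5 and 39.6 in STR, short of 2-fold in at least 1 origin. Of 6 genes of GABA synthesis, vesicle loading, uptake and breakdown, GAD2, a GABA-synthesizing enzyme, had 304 and 269 FPKM in STR against 80.5 and 72.4 in PFC, and SLC32A1, the vesicular GABA transporter, had 84.3 and 69.3 against 34.0 and 30.1. Both were at least 2-fold lower in CER than in STR, and SLC6A11 was lower in CER than in both other regions. Of 9 chloride transport genes, CLCN2 was at least 2-fold higher in CER than in PFC and STR, CA2 was at least 2-fold higher in STR than in PFC, and SLC12A5, the neuronal chloride exporter, had 120 and 104 FPKM in PFC, 118 and 107 in CER and 94.3 and 68.8 in STR.

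Of 4 measured GABA-B receptor genes, KCTD8 and KCTD12 were at least 2-fold higher in CER than in PFC and KCTD16 was at least 2-fold lower. GABBR2, a GABA-B receptor subunit, was at least 2-fold lower in STR than in PFC, and in STR it had 23.5 FPKM in Chinese-origin and 8.87 in Indian-origin monkeys. Against STR, GABBR2 and KCTD8 were at least 2-fold higher in CER and KCTD16 was at least 2-fold lower. Between origins, 3 of these 4 were at least 1.5-fold higher in Chinese-origin STR, as were 2 of 19 anchoring genes, 1 of 6 synthesis and uptake genes and 1 of 9 chloride genes, against 19.1% of all genes. In PFC only KCTD16 passed, and in CER none of the 4 lists had a gene past 1.5-fold in either direction.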
